A study of Mus musculus with 18 samples.

Results

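Genes for 6 ion channels that open when a cell's membrane is stretched were followed through mouse back skin in which a subcutaneous hydrogel expander had or had not been placed: Piezo1, Piezo2, Trpv4, Tmem63a, Tmem63b and Kcnk2. They were chosen by symbol, each symbol matched 1 row of the count matrices, and they are 6 of the 32285 genes counted. All animals had an incision near the tail and a path opened under the skin to the neck. Expanded skin then received the expander, and control skin came from operated mice without one, so that the comparison is of the expander on top of surgery. Strain, sex and age were not given in the sources used here. Live (DAPI-negative) cells were sorted, the mice of 1 arm and sequencing round were pooled in 1 tube, and 10x Genomics 3′ libraries were made. There were 10 libraries, 5 per arm: 2 per arm at day 1, 2 at day 2 and 1 at day 4. Control and expanded libraries of the same day and sequencing round form 5 pairs. In 8 of the 10 libraries hashing antibodies marked 3 or 4 mice each, and the replicate in the tests below is the library, that is, a pool of mice, except where a value is said to be per hashed mouse; mice of 1 arm and round share a library, so that such values are not fully independent.

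The deposited matrices held 55174 cell barcodes, and 45397 cells were used. Library totals ran from 17726739 to 75470722 unique molecular identifiers (UMIs, 1 per captured RNA molecule). Median UMIs per kept cell ran from 6440.5 to 12847.5 across libraries, and 8.60 to 24.4% of barcodes exceeded the mitochondrial limit. Any pair of libraries shared at most 18 cell barcodes, 0.413% of the smaller library. Cells fell into 37 clusters, and 29 of them were named as 16 classes from marker genes, leaving 4572 cells in unnamed clusters. In 8 of the 16 classes at least 1 marker was higher in another class, and no class had a marker at 0. None of the 6 channel genes was among the genes used for clustering. Within the fibroblast-like and the macrophage or monocyte-like class, different clusters held most cells in the 2 arms, and their values are given where they touch a result.

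Mechanically gated channels turn a change in membrane tension into an ion current within milliseconds. Piezo1 and Piezo2 form large propeller-shaped trimers that pass cations, including calcium. Piezo1 is known for sensing shear and pressure in vessels and blood cells, and Piezo2 for touch sensing in sensory neurons and Merkel cells. Trpv4 is a calcium-permeable cation channel opened by cell swelling, warmth and lipid products. Tmem63a and Tmem63b belong to the OSCA/TMEM63 family of cation channels gated by high membrane tension. Kcnk2, also called TREK-1, is the opposite in sign: it is a two-pore-domain potassium channel whose opening by stretch pulls the membrane towards rest.

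In the GENCODE M21 annotation of GRCm38, the sequence that the submitters' notes call mm10, Piezo1 (ENSMUSG00000014444) lies at chr8:122481698-122551329 on the minus strand and Piezo2 (ENSMUSG00000041482) at chr18:63010213-63387183 on the minus strand. Trpv4 (ENSMUSG00000014158) lies at chr5:114622152-114658421 on the minus strand. Tmem63a (ENSMUSG00000026519) lies at chr1:180942344-180975112 on the plus strand. Tmem63b (ENSMUSG00000036026) lies at chr17:45660171-45686905 on the minus strand. Kcnk2 (ENSMUSG00000037624) lies at chr1:189207930-189402273 on the minus strand and spans 194344 bases. Exons of Piezo1 overlap those of Ctu2, on the opposite strand at chr8:122476143-122484138, which gave 5276 UMIs. The overlap lies at the 3′ end of Piezo1, the end from which counts come. Kcnk2 shares at most 719 exonic bases with the antisense gene A430027H14Rik. For Tmem63b these upper limits are 288 with Gm16172 and 177 with Mrpl14, and for Tmem63a 157 with 2210411M09Rik. The strand setting of the counting was not given in the sources used here, so that reads from those stretches cannot be assigned with certainty. Counts come from transcript ends, so levels are compared between cells and arms for 1 gene at a time and not between genes.

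The members differed widely in how often they were caught. Piezo1 gave 19547 UMIs in 28.4% of all cells, Tmem63a 16695 UMIs in 26.1%, and Tmem63b 13417 UMIs in 21.8%. Kcnk2 gave 8018 UMIs in 7.86% of cells, Trpv4 2507 UMIs in 4.42%, and Piezo2 only 1327 UMIs in 2.10%. Because cells differ in depth, shares of cells were also taken after each cell was thinned to 2000 UMIs, which left out 2483 of 28403 control cells and 1037 of 16994 expanded cells. Levels below are in CPM, a gene's UMIs over all UMIs of a library's cells of 1 class, scaled to 1000000, for libraries with at least 20 such cells.

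**Figure D1:**
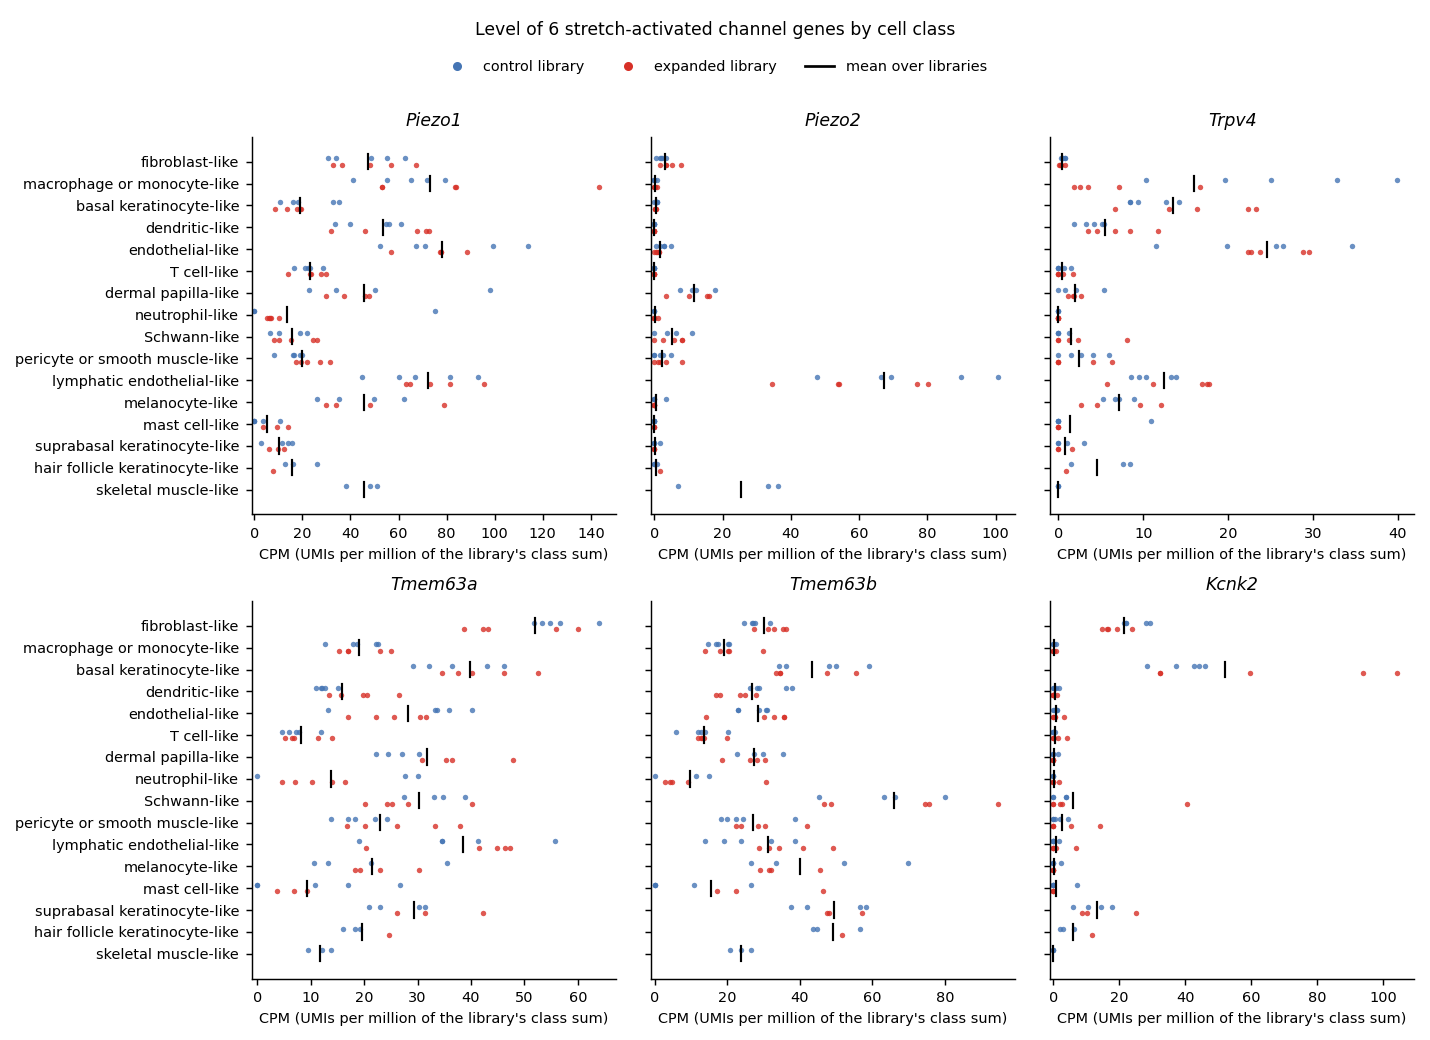
Level of each gene (CPM, linear axis) in the 16 cell classes, with 1 point per library holding at least 20 cells of the class, blue for control and red for expanded, and a black bar at the mean. Piezo2 stood highest in lymphatic endothelial-like cells at a mean of 67.4 CPM, and Kcnk2 in basal keratinocyte-like cells at 52.0 CPM.

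Piezo1 was highest in blood and lymphatic endothelial-like cells and in macrophage or monocyte-like cells. Its level was 78.2 ± 18.6 CPM (SD, n = 10 libraries) in endothelial-like cells, 72.9 ± 28.7 in macrophage or monocyte-like cells and 72.4 ± 15.7 in lymphatic endothelial-like cells. The order of these 3 classes was not resolved. The exact two-sided sign-flip test over 10 libraries gave p = 0.637 for the first against the second and p = 0.967 for the second against the third. The first against the third was not tested. Only neighbours in the order of means were tested, so these p-values do not show that the 3 classes were alike. Dendritic-like cells followed at 53.5 ± 15.1 CPM and fibroblast-like cells at 47.4 ± 13.2. Skeletal muscle-like, dermal papilla-like and melanocyte-like cells lay between 45.5 and 45.8 CPM, and T cell-like cells at 23.0 ± 5.02. Basal keratinocyte-like cells stood at 19.2 ± 8.65 CPM and suprabasal keratinocyte-like cells at 10.4 ± 4.43. Mast cell-like cells were lowest at 5.20 ± 5.47 CPM, from 8 UMIs in 552 cells. After thinning, 15.7% of 2363 endothelial-like cells held a Piezo1 UMI (exact Clopper-Pearson 95% interval 14.3 to 17.3%), against 1.41% of 1066 neutrophil-like cells (0.790 to 2.31%). Without thinning those shares were 39.5% and 2.05%, at median depths of 6764.5 and 2884.5 UMIs. These intervals cover counting error only.

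Piezo2 was concentrated in lymphatic vessels. Lymphatic endothelial-like cells, which carry Prox1, Lyve1 and Ccl21a among their leading genes, held 67.4 ± 20.3 CPM (n = 10), with the lowest library at 34.5 and the highest at 101. In blood endothelial-like cells it was 1.70 ± 1.45 CPM. Dermal papilla-like cells, the mesenchymal cells at the base of the hair follicle, had 11.7 ± 4.69 CPM, and in all 8 libraries with both classes they lay below the lymphatic cells (exact two-sided sign-flip p = 0.00781, the smallest that 8 libraries allow; 0.10 after Benjamini-Hochberg adjustment over 77 pairs of neighbouring classes). Skeletal muscle-like cells, led by the satellite cell genes Pax7, Myod1 and Myf5, had 25.5 ± 16.2 CPM in the 3 control libraries that held 20 of them. Schwann-like cells had 5.10 ± 3.80 CPM and fibroblast-like cells 3.13 ± 2.08. No Piezo2 UMI was found in T cell-like, dendritic-like or mast cell-like cells. After thinning, 13.1% of 905 lymphatic endothelial-like cells held a UMI (24.9% without thinning, median depth 4388 UMIs). Of 2466 T cell-like cells none did (median depth 4293.5 UMIs), and 3 counts over those cells put the limit on the share of cells with a UMI, though not of cells that express the gene, at 0.122% (exact 95% upper bound 0.149%).

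The lymphatic class was 1.88% of control and 3.18% of expanded cells but held a large part of the Piezo2 RNA: 195 of 698 Piezo2 UMIs (27.9%) in control and 232 of 629 (36.9%) in expanded libraries. Fibroblast-like cells, being many, held 31.8% and 26.9%. Among fibroblasts Piezo2 was uneven. Cluster 1, led by Lrrc15, Mmp11 and Postn, stood at 9.64 ± 5.23 CPM in control and 10.0 ± 5.29 in expanded libraries (n = 5 each), and the unnamed Coch, Fmod and Kera cluster 9 at 12.7 ± 4.65 and 12.7 ± 8.25. Clusters 6 and 8 stood between 0.0633 and 0.514 CPM in either arm. Merkel cells, the touch receptors in which Piezo2 is best known, could not be examined: 2 cells carried at least 3 of 7 Merkel cell markers, both of them in the Schwann-like class, and 1 of these held a Piezo2 UMI.

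Trpv4 had 4 main sites. Endothelial-like cells stood at 24.5 ± 6.23 CPM, macrophage or monocyte-like cells at 15.95 ± 13.4, basal keratinocyte-like cells at 13.5 ± 5.76 and lymphatic endothelial-like cells at 12.5 ± 4.08 (n = 10 each). The exact two-sided sign-flip test over 10 libraries gave p = 0.0879, 0.605 and 0.611 for these neighbours in turn, so that their order was not resolved. The arms differed in macrophage or monocyte-like cells: in control libraries these stood at 25.6 ± 11.5 CPM beside 23.6 ± 8.57 in endothelial-like cells, and in expanded libraries at 6.33 ± 6.14 beside 25.5 ± 3.43. Melanocyte-like cells followed at 7.11 ± 3.05 CPM and dendritic-like cells at 5.47 ± 2.87. Fibroblast-like cells had only 0.450 ± 0.248 CPM from 88 UMIs in 15023 cells. After thinning, 5.12% of 2363 endothelial-like cells held a UMI (15.5% without thinning) against 0.169% of 14216 fibroblast-like cells (0.566% without thinning), although the fibroblast-like cells were deeper (median 10602 against 6764.5 UMIs).

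Kcnk2 was mostly a basal keratinocyte and fibroblast gene. Basal keratinocyte-like cells had 52.0 ± 26.4 CPM and fibroblast-like cells 21.4 ± 4.81, and the keratinocytes were higher in 10 of 10 libraries (exact two-sided sign-flip p = 0.00195, the smallest that 10 libraries allow; 0.10 adjusted over the 77 pairs). Suprabasal keratinocyte-like cells followed at 13.3 ± 6.49 CPM (n = 7). The mean of 5.86 CPM in Schwann-like cells rests on 1 expanded library of day 1 with 5 UMIs in 21 cells, and 4 of the 9 Schwann-like sums had none. Hair follicle keratinocyte-like cells, with a sum in only 4 libraries, had 5.85 ± 4.40 CPM from 40 UMIs in 285 cells. All other classes with a sum in at least 5 libraries lay at or below 2.68 CPM. After thinning, 13.2% of 4202 basal keratinocyte-like cells held a UMI (12.2 to 14.2%; 31.5% without thinning) against 0.106% of 4706 macrophage or monocyte-like cells (0.201% without thinning), at median depths of 11155 and 8235 UMIs.

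Both keratinocyte members were confined almost wholly to 1 of the 2 basal clusters. Cluster 3, led by Krt24, Lhx2, Wfdc3 and Krt15, genes known from the hair follicle's stem cell region, held 683 of the class's 710 Kcnk2 UMIs in control and 3113 of 3187 in expanded libraries. Of the Trpv4 UMIs it held 170 of 178 and 730 of 756. In control libraries Kcnk2 was 80.9 ± 24.8 CPM there against 2.50 ± 1.79 in cluster 10, led by Fgfbp1 and Krt14. Trpv4 was 20.9 ± 7.52 CPM in cluster 3 against 1.28 ± 1.11 in cluster 10. Piezo1 and Tmem63b did not share this split in control libraries. They stood at 23.8 ± 8.30 and 41.6 ± 9.46 CPM in cluster 3, and at 22.3 ± 13.6 and 49.8 ± 14.8 in cluster 10. Tmem63a was higher in cluster 3 but present in both, at 49.2 ± 9.92 CPM against 25.9 ± 4.74 in cluster 10 of control libraries. Among fibroblast clusters, Kcnk2 stood out in cluster 6, led by Igfbp2, Mme and Wnt5a, at 96.0 ± 19.0 CPM in control libraries, and the other 7 lay at or below 30.9 CPM.

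Tmem63a and Tmem63b were found in every class. Tmem63a was highest in fibroblast-like cells at 52.0 ± 8.21 CPM, then in basal keratinocyte-like cells at 39.8 ± 7.20 (higher in fibroblast-like cells in 9 of 10 libraries, exact two-sided sign-flip p = 0.00391, adjusted 0.10), lymphatic endothelial-like cells at 38.6 ± 11.7 and dermal papilla-like cells at 31.8 ± 8.15. T cell-like cells were lowest at 8.16 ± 3.15 CPM. Tmem63b was highest in Schwann-like cells, the glia of peripheral nerve, at 66.1 ± 17.0 CPM (n = 9), and it was higher there than in suprabasal keratinocyte-like cells in all 6 libraries with both (68.0 against 48.4 CPM; exact two-sided sign-flip p = 0.0312, the smallest 6 libraries allow; adjusted 0.201). Hair follicle and basal keratinocyte-like cells had 49.2 ± 6.06 and 43.3 ± 9.78 CPM, melanocyte-like cells 40.0 ± 14.9 and fibroblast-like cells 30.1 ± 3.93. Neutrophil-like cells were lowest at 9.77 ± 9.80 CPM. Neither gene has a class here that could serve as a background without expression. Over all 6 genes, 13 of 77 pairs of neighbouring classes had an unadjusted exact p under 0.05 and 0 passed the adjustment.

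The genes whose class pattern was most like each member's were named from 12704 genes by Pearson correlation of log2(mean CPM + 1) across the 16 classes, as a description. All values share the same libraries and class sums. For Kcnk2 they were Duoxa1 (r = 0.919), Gpha2 (0.916) and Sult5a1 (0.907), the first 2 highest in basal keratinocyte-like cells. For Piezo2 they were Glis3 (0.900), Zfpm2 (0.888) and Arsj (0.873). For Trpv4 they were Lratd2 (0.809), Pparg (0.777) and Oma1 (0.759), each highest in endothelial-like cells. For Piezo1 they were Ogfr (0.860), Mapk7 (0.823) and Mid1 (0.819), for Tmem63a Tmem159 (0.858), Rin2 (0.854) and Dcun1d3 (0.850), and for Tmem63b Znrd2 (0.924), Mrps28 (0.906) and Dgcr6 (0.904).

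Expanded and control skin were compared within each class on counts summed per library, with edgeR's quasi-likelihood test and Benjamini-Hochberg adjustment over all genes tested in that class. The members gave 39 tests in 11 classes, and 4 passed an adjusted p of 0.05: Trpv4 in macrophage or monocyte-like cells, Kcnk2 and Tmem63a in fibroblast-like cells, and Tmem63b in dendritic-like cells. All 4 were lower in expanded skin. Of all genes tested, 26.1% were called in macrophage or monocyte-like, 34.7% in fibroblast-like and 18.2% in dendritic-like cells, so that 2 of 5 members in fibroblast-like cells, 1 of 4 in macrophage or monocyte-like cells and 1 of 4 in dendritic-like cells are near the background. No member was called in basal keratinocyte-like cells (5 tested, 10.8% of all genes called), endothelial-like (4, 12.7%), lymphatic endothelial-like (4, 11.9%), pericyte or smooth muscle-like (3, 19%), dermal papilla-like (4, 3.71%), melanocyte-like (2, 1.33%), T cell-like (2, 0.238%) or Schwann-like cells (2, 0.167%). DESeq2 called the same 4 and no other. Of the 35 tests that edgeR did not call, 6 had an unadjusted p under 0.05. Piezo1 was tested in 10 classes and Piezo2 in 3, and neither was called by either tool, with 1 unadjusted p under 0.05 for each. With library size alone as the scale, 3 tests passed, 2 of them lower and 1 higher.

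**Figure D2:**
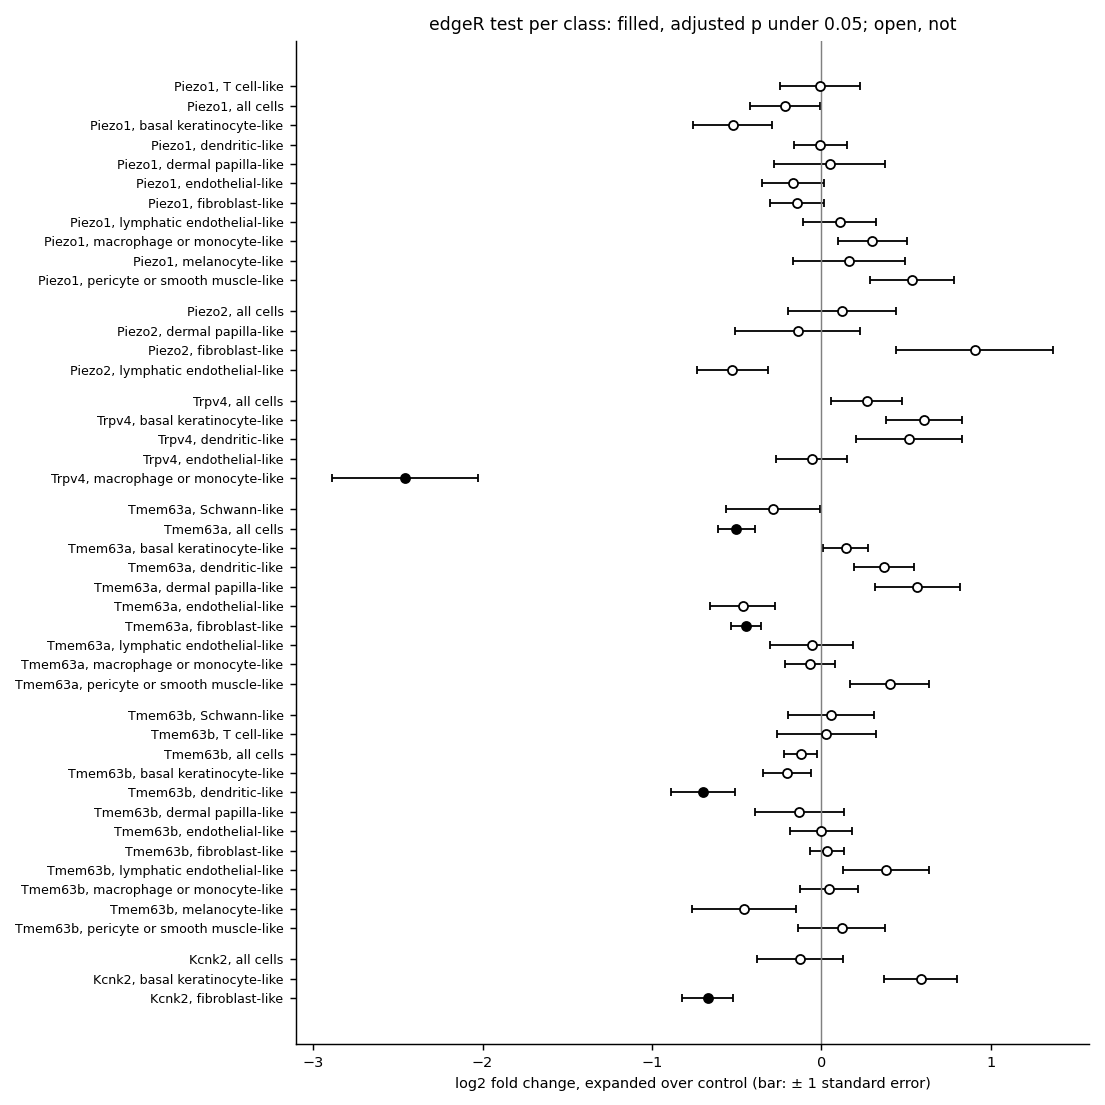
log2 fold change of each gene, expanded over control, for every class in which it passed the count filter and for whole libraries (x axis; bars are ± 1 standard error; filled points have an adjusted p under 0.05). The 5 filled points lie below 0, from -2.46 for Trpv4 in macrophage or monocyte-like cells to -0.44 for Tmem63a in fibroblast-like cells.

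Trpv4 had the largest of the 4 changes, in macrophage or monocyte-like cells. In control libraries it was 40.0 and 25.1 CPM at day 1, 32.9 and 10.3 at day 2, and 19.6 at day 4. In expanded libraries it was 16.7 and 7.10 CPM at day 1, 2.52 and 3.46 at day 2, and 1.86 at day 4. Every expanded library lay below its control partner, and the arms overlapped only where the expanded library of day 1, round 1 exceeded the control of day 2, round 2. The log2 fold change was -2.46 (SE 0.43, adjusted p = 0.00344), from 436 control and 109 expanded UMIs. The share of thinned cells with a UMI was 5.43 ± 2.52% in control and 1.69 ± 2.22% in expanded libraries (exact two-sided permutation p = 0.0476, adjusted 0.469 over 36 tests).

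The class was made of different cells in the 2 arms. Cluster 5, led by C1qa, Folr2 and Cd209f, held 86.7 ± 18.3% of the class in control and 17.9 ± 24.3% in expanded libraries, and cluster 4, led by Chil3, Ly6c2 and Ms4a4c, held the rest. In control libraries Trpv4 lay almost wholly in cluster 5, with 428 of the 436 UMIs. In expanded libraries both clusters held Trpv4 UMIs, such as 26 in cluster 5 at day 1, round 1 and 35 in cluster 4 at day 2, round 1. In cluster 5 it was 28.2 ± 10.2 CPM in 5 control libraries. In the 3 expanded libraries with 20 such cells it was 27.7 and 37.0 CPM at day 1 and 2.29 at day 4, the last from 1 UMI in 42 cells. In cluster 4 it was 1.82 to 2.86 CPM in the expanded libraries, and 0 in 3 of the 4 control libraries with 20 such cells and 4.18 in the other. Too few expanded libraries held cluster 5 for a test within it. How much of the class's fall lies in the makeup of the class and how much within a cluster was not tested.

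**Figure D3:**
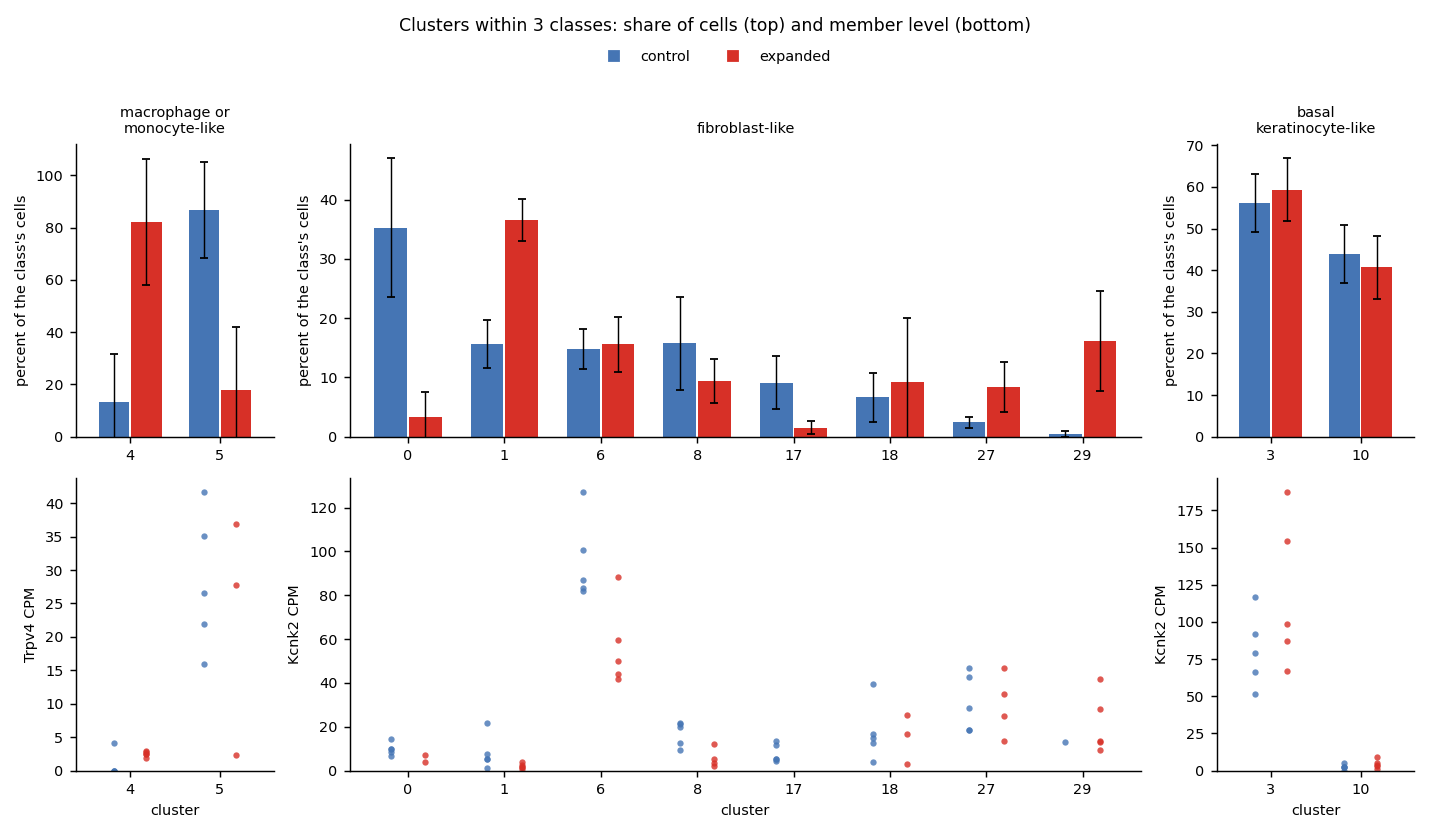
Top: share of each class's cells in its clusters (percent, mean ± SD over 5 libraries per arm). Bottom: level per library with at least 20 cells (CPM) of Trpv4 in the macrophage or monocyte-like clusters and of Kcnk2 in the fibroblast-like and basal keratinocyte-like clusters, blue for control and red for expanded. Kcnk2 in cluster 6 was lower in expanded libraries at a like share of the class (14.8 and 15.5%), whereas the Trpv4-bearing cluster 5 shrank from 86.7 to 17.9%.

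Kcnk2 fell in fibroblast-like cells. Control libraries had 21.4 and 29.2 CPM at day 1, 28.2 and 22.0 at day 2, and 22.1 at day 4. Expanded libraries had 16.3 and 14.9 CPM at day 1, 19.3 and 23.8 at day 2, and 16.7 at day 4. Only the second pair of day 2 went the other way, and the arms overlapped through that library. The log2 fold change was -0.67 (SE 0.15, adjusted p = 0.00682). With cells summed per hashed mouse it was -1.22 (adjusted p = 0.000833). That fit also took the pairs as a block in place of day, and it left out day 1, round 1, which had no hashing. The fibroblast-like class also changed in makeup: cluster 0, led by Mirg, Rian and Col1a2, fell from 35.3 ± 11.7 to 3.34 ± 4.21% of the class, and cluster 1 rose from 15.6 ± 4.10 to 36.5 ± 3.49%; these shares were not tested.

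In cluster 6, the main Kcnk2 cluster, the fall was also measured within the cluster, a grouping added after the data were seen. Control libraries had 81.7 and 87.1 CPM at day 1, 127 and 101 at day 2, and 83.3 at day 4, and expanded libraries 41.9 and 44.2, 59.7 and 88.5, and 49.9. All 5 pairs were lower in expanded skin (log2 fold change -0.95, SE 0.15, adjusted p = 0.000713; 0.00138 with the pairs as a block), and 16.3% of all genes tested in the cluster were called. Of its cells 42.0% held a Kcnk2 UMI in control and 38.3% in expanded libraries, without thinning. Kcnk2 was also lower in cluster 8, led by Ccl19, Pla2g5 and C3 (17.0 ± 5.57 against 5.72 ± 4.43 CPM in 5 and 4 libraries; log2 fold change -2.05, SE 0.45, adjusted p = 0.0187, where 7.94% of genes were called). That call rests on 25 expanded UMIs, and it was lost without the day 1, round 1 control (adjusted p = 0.0591), without the day 1, round 1 expanded library (0.109) and without the day 1, round 2 expanded library (0.0501). Across 17 clusters with enough libraries, 3 of 58 tests of members passed. They were these 2 and Tmem63b in cluster 2, which is the whole dendritic-like class (18.2% of all genes called).

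In basal keratinocyte-like cells Kcnk2 and Trpv4 had higher means in expanded skin without passing the test. Kcnk2 was 45.9 and 37.1 CPM at day 1, 42.5 and 44.2 at day 2, and 28.5 at day 4 in control libraries, and 104 and 93.8, 32.2 and 59.7, and 32.4 in expanded libraries. The 2 expanded libraries of day 1 stood above every other library, and at days 2 and 4 the arms overlapped. Trpv4 was 12.6 and 8.48 CPM, 14.2 and 9.40, and 8.38 in control, and 22.4 and 23.3, 13.0 and 16.3, and 6.63 in expanded libraries. The same 2 libraries of day 1 were highest, and the first pair of day 2 and the day 4 pair went the other way, so that 3 of 5 pairs were higher. The log2 fold changes were 0.59 (SE 0.22, adjusted p = 0.0961) for Kcnk2 and 0.61 (SE 0.23, adjusted p = 0.102) for Trpv4. Kcnk2 passed without the expanded library of day 2, round 1 (adjusted p = 0.0243), and Trpv4 without the control (0.0482) or the expanded library (0.0485) of day 4. Within cluster 3, whose share of the class was 56.0 ± 6.99% in control and 59.3 ± 7.63% in expanded libraries, they were 0.60 (SE 0.19, adjusted p = 0.136) and 0.66 (SE 0.21, adjusted p = 0.135). There Kcnk2 reached 188 and 155 CPM in the expanded libraries of day 1 against 78.8 and 66.1 in their controls.

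Whether the arms differed by day was tested by edgeR with an arm-by-day term in 31 tests of members, and 0 passed. The smallest unadjusted p-values belonged to these 2 genes in basal keratinocyte-like cells, 0.0216 for Kcnk2 (adjusted 0.971) and 0.0442 for Trpv4 (adjusted 0.977), and were the 2 under 0.05. Day 4 had 1 library per arm, which limits this test.

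The start-site sequences of these 2 genes are shown because, within the basal class, both lay almost wholly in cluster 3, and both stood highest in the 2 expanded libraries of day 1. Each is the 250 bases before the gene's most upstream start in RefSeq's GRCm38.p6 models, both on the minus strand, printed 5′ to 3′, at chr1:189402274-189402523 for Kcnk2 and chr5:114658422-114658671 for Trpv4. Capitals mark matches on either strand to any of 4 motifs. The AP-1 motif was searched as TGANTCA. For TEAD factors the letters were CATTCC. The GC box, which Sp1 binds, was searched as GGGCGG. The TATA box was searched as TATAAA.
Kcnk2: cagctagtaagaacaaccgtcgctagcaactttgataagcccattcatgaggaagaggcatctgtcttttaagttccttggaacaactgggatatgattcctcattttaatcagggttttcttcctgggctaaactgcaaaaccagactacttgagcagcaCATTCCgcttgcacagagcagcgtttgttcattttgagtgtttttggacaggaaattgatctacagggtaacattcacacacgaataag
Trpv4: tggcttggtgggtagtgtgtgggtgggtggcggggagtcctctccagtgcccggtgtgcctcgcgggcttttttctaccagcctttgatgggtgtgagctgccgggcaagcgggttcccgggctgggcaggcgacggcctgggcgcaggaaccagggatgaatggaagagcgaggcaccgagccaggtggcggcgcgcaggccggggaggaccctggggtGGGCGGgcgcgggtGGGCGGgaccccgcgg
The Kcnk2 window had 1 TEAD match, which starts 89 bases before the start site, and a GC content of 42.4%. The Trpv4 window had 2 GC boxes, 30 and 16 bases before the start, and a GC content of 72%. Of 32851 windows of the same length, 12.6% held the TEAD letters, 32.7% a GC box, 6.75% the AP-1 letters and 12.4% a TATA box. RefSeq has 3 further Kcnk2 starts, whose windows held 1 AP-1 match, 1 GC box and no match, and counts from transcript ends do not tell which start was used. The matches are a description of letters and not of binding.

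Tmem63a fell in fibroblast-like cells and in whole libraries. In fibroblast-like cells it was 54.8 and 64.0 CPM at day 1, 53.3 and 56.6 at day 2, and 51.8 at day 4 in control, and 60.1 and 55.9, 42.2 and 38.7, and 43.1 in expanded libraries. The expanded libraries of days 2 and 4 lay below all controls, and those of day 1 within them. Within fibroblast clusters 1, 6, 8 and 27 Tmem63a was not called by edgeR. The log2 fold changes there were 0.16 (adjusted p = 0.539), -0.22 (0.261), -0.50 (0.060) and -0.23 (0.645), in that order. Clusters 0 and 1 changed in their share of the class, as given above, and their part in the class value was not tested. For the whole fibroblast-like class the log2 fold change was -0.44 (SE 0.087, adjusted p = 0.00325). With library size alone as the scale, it was -0.24 and was not called (adjusted p = 0.111); this scale moves the median of all genes by 0.211 in fibroblast-like cells, 0.203 in dendritic-like cells, 0.178 in whole libraries and 0.104 in pericyte or smooth muscle-like cells. In whole libraries Tmem63a was 40.3 ± 4.82 CPM in control and 33.3 ± 10.3 in expanded skin (log2 fold change -0.50, SE 0.11, adjusted p = 0.0109; 26.3% of all genes called), and 0.0702 with library size alone. Fibroblast-like cells, the class with the highest Tmem63a level, were 42.0 ± 10.2% of control and 18.2 ± 7.82% of expanded libraries, and they held 71.4% of control and 35.5% of expanded Tmem63a UMIs. Whether this shift in cells accounts for the whole-library value was not tested. The other 5 members did not pass in whole libraries.

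Dermal papilla-like cells were the one tested class in which a member's arms did not overlap: Tmem63a was 22.2 to 30.2 CPM in 4 control libraries and 30.8 to 47.9 in 4 expanded libraries. The test was not passed (log2 fold change 0.57, SE 0.25, adjusted p = 0.256). In dendritic-like cells Tmem63a was 12.6 ± 1.54 CPM in control and 19.2 ± 5.03 in expanded libraries, higher in 5 of 5 pairs, without passing (0.37, SE 0.18, adjusted p = 0.164), except under library size alone (0.0487).

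The dendritic-like class was led by Lyz1, Ear2 and Mmp12, with Cd209e, Mgl2, Cd209a and Cd74 further down its leading genes. It met a share of 0.75 of the dendritic and 0.8 of the Langerhans cell markers, so its name is less certain. Tmem63b fell in these cells. Control libraries had 26.3 and 36.2 CPM at day 1, 37.8 and 28.9 at day 2, and 28.3 at day 4, and expanded libraries 27.9 and 23.5, 18.1 and 16.9, and 25.0. In 4 of 5 pairs the expanded library was lower, and the arms overlapped at day 1. The log2 fold change was -0.70 (SE 0.19, adjusted p = 0.0277; 0.0238 with the pairs as a block). The call was lost without the day 1, round 2 control (adjusted p = 0.0811) and without the expanded library of day 1, round 2 (0.0549), day 2, round 1 (0.0722) or day 2, round 2 (0.0717), and with library size alone (0.0738). Per hashed mouse it held (-0.80, adjusted p = 0.00159), with the pairs as a block and without day 1, round 1, which had no hashing. After thinning, 5.60 ± 0.54% of control and 2.67 ± 1.55% of expanded cells held a UMI (exact two-sided permutation p = 0.00794, the smallest that 5 against 5 allows; adjusted 0.286). Without thinning the shares overlapped, at median depths of 9548 and 13479 UMIs.

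**Figure D4:**
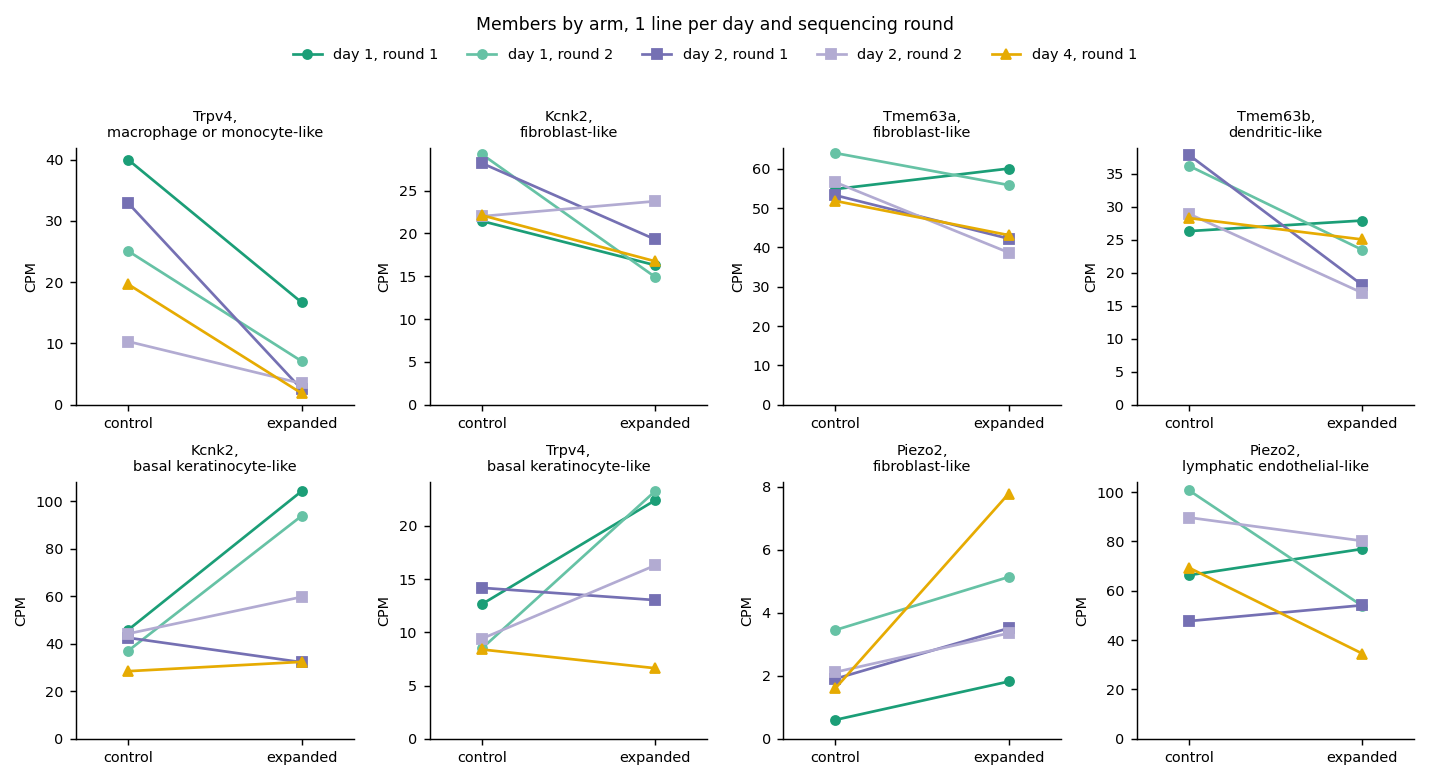
Level (CPM, axes from 0) in control and expanded libraries for 8 gene and class combinations, with 1 line per day and sequencing round. Trpv4 in macrophage or monocyte-like cells fell in 5 of 5 pairs, and the 2 expanded libraries of day 1 were highest for Kcnk2 and Trpv4 in basal keratinocyte-like cells.

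Neither Piezo gene passed in the main test, and 2 values depended on the pairing. Piezo2 in fibroblast-like cells was 0.60 and 3.45 CPM at day 1, 1.90 and 2.11 at day 2, and 1.60 at day 4 in control, and 1.82 and 5.13, 3.51 and 3.35, and 7.78 in expanded libraries. It was higher in 5 of 5 pairs from 222 and 169 UMIs (log2 fold change 0.91, SE 0.46, adjusted p = 0.153), and with the pairs as a block the adjusted p was 0.0192. Cluster 1, at 9.64 CPM in control and 10.0 in expanded libraries, made up 15.6% of fibroblast-like cells in control and 36.5% in expanded libraries; its part in the class value was not tested. Piezo1 in basal keratinocyte-like cells was 22.7 ± 10.8 CPM in control and 15.7 ± 4.55 in expanded libraries, lower in 4 of 5 pairs (-0.52, SE 0.23, adjusted p = 0.165), and 0.0290 with the block. It also passed without the expanded library of day 2, round 1 (0.0178) or the control of day 2, round 2 (0.0471), and Piezo2 in fibroblast-like cells without the control of day 1, round 2 (0.0197). Piezo2 in lymphatic endothelial-like cells was 74.8 ± 20.8 CPM in control and 59.9 ± 18.8 in expanded libraries, lower in 3 of 5 pairs (-0.53, SE 0.21, adjusted p = 0.116). Piezo1 in endothelial-like cells was 80.8 ± 25.1 CPM in control and 75.6 ± 11.5 in expanded libraries (-0.17, SE 0.18, adjusted p = 0.60), and in macrophage or monocyte-like cells 62.4 ± 14.9 and 83.4 ± 36.9 (0.30, SE 0.21, adjusted p = 0.302). In pericyte or smooth muscle-like cells it was 15.9 ± 4.64 and 23.6 ± 5.78 CPM (0.53, SE 0.25, adjusted p = 0.147). These p-values do not show that the arms were alike. Of 36 shares of cells with a UMI, 3 had an exact permutation p under 0.05 and 0 passed the adjustment.

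Where a channel's RNA came from differed between the arms, and not always in the direction of the cell numbers. Basal keratinocyte-like cells were 5.95% of all control and 15.7% of all expanded cells, and their part of Kcnk2 UMIs was 18.1% and 77.8%, while fibroblast-like cells went from 78.5% to 18.6%. For Trpv4, macrophage or monocyte-like cells held 37.7% of control and 8.08% of expanded UMIs, and basal keratinocyte-like cells 15.4% and 56.0%. For Piezo1, fibroblast-like cells held 55.5% and 28.5%, and macrophage or monocyte-like cells 9.27% and 27.3%. These shares follow numbers of sorted cells as well as levels and were not tested.

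Lists of related genes, 3 in all, were read with the same test. Of 24 other stretch- or force-responsive channels, 13 could be tested in some class, and of 76 tests 1 was higher and 6 lower in expanded skin, in 3 classes. In fibroblast-like cells Lrrc8a, the essential subunit of the volume-regulated anion channel, rose (log2 fold change 0.56, adjusted p = 0.00274), and Pkd2, Panx1 and Pkd1 fell (4 of 10 tested; 34.7% of all genes called). In pericyte or smooth muscle-like cells Trpv2 and Pkd1 fell by 1.06 and 0.72 on the log2 scale (2 of 8 tested, 19%). Lrrc8a fell by 0.67 in macrophage or monocyte-like cells (1 of 8 tested, 26.1%). None was called in the other classes, such as dendritic-like (8 tested, 18.2% of all genes called) and basal keratinocyte-like cells (9 tested, 10.8%). Of 9 channel partners and modulators, 8 could be tested, with 3 higher and 4 lower in 60 tests. These were 4 of 8 in fibroblast-like cells (34.7% of all genes called), 2 of 6 in macrophage or monocyte-like cells (26.1%) and 1 of 5 in endothelial-like cells (12.7%). Tmem150c, proposed as a modulator of mechanically activated currents, fell from 39.3 ± 2.77 to 17.3 ± 8.13 CPM in fibroblast-like cells (-1.38, SE 0.24, adjusted p = 0.00174), and it is among the leading genes of cluster 8. Stom, which encodes the membrane scaffold protein stomatin, fell in endothelial-like cells from 83.3 ± 30.5 to 46.5 ± 10.6 CPM (-0.94, adjusted p = 0.00384) and in macrophage or monocyte-like cells by 0.74 on the log2 scale (adjusted p = 0.0311). In fibroblast-like cells it rose from 10.5 ± 1.69 to 18.05 ± 3.03 CPM (0.57, adjusted p = 0.0197).

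The calcium and calcineurin-NFAT list held genes of calcium entry and store release (Orai, Stim and Itpr) beside those of calcineurin and NFAT. These genes gave 217 tests with 12 higher and 23 lower in 8 classes. Their share called was 29.2% in fibroblast-like cells (34.7% of all genes), 50% in macrophage or monocyte-like cells (26.1%), 22.2% in pericyte or smooth muscle-like cells (19%), 20% in dendritic-like cells (18.2%) and 17.6% in lymphatic endothelial-like cells (11.9%). It was 14.3% in endothelial-like cells (12.7%), 9.52% in basal keratinocyte-like cells (10.8%) and 4.76% in dermal papilla-like cells (3.71%). Rcan1, a feedback inhibitor of calcineurin that is itself an NFAT target, fell in endothelial-like cells from 401 ± 63.2 to 192 ± 62.8 CPM (-1.19, SE 0.18, adjusted p = 0.00212) and in macrophage or monocyte-like cells from 400.2 ± 185 to 29.6 ± 16.9 (-3.82, SE 0.50, adjusted p = 0.00117), beside the change in makeup of that class. There Itpr3 and Camk2d rose (3.13 and 0.96) and Nfatc2 fell by 0.98. Orai2, a store-operated calcium channel subunit, rose in fibroblast-like cells (4.29 ± 1.29 to 13.4 ± 1.67 CPM, adjusted p = 0.000518), together with Ppp3cc (0.87), while Camk2d fell by 0.82. In dendritic-like cells Orai2 (1.55) and Nfatc3 (0.69) rose and Stim2 fell by 1.01, and Rcan1, opposite to its falls above, rose from 7.99 ± 3.24 to 18.6 ± 8.18 CPM (0.97, adjusted p = 0.0498). In endothelial-like cells Orai1 rose (0.67), in dermal papilla-like cells Ppp3cc (1.65), and in lymphatic endothelial-like cells Ppp3ca and Nfatc2 fell by 0.64 and 0.87. Itpr1 and Rcan2 fell in pericyte or smooth muscle-like cells, by 1.46 and 1.59, and Itpr2 and Camk2d in basal keratinocyte-like cells, by 0.41 and 0.46. The median log2 fold change of the tested calcium genes lay between -0.26 and 0.10 in the 11 classes, beside -0.0049 to 0.029 for all genes. In whole libraries Orai2 and Itpr3 rose (1.13 and 0.55), and Rcan2 and Nfatc2 fell by 1.29 and 0.79.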

How the data were processed

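Raw UMI counts per gene and cell were deposited for 10 mRNA libraries; the submitters' processing notes name Cell Ranger 6.1.2 and the build mm10, and the annotation, strand and intron settings were not given in the sources used here. Hashing antibody counts lay in the deposited matrices of 8 libraries and served for doublets and for sums per mouse (HTODemux, Seurat 5.3.0). Limits of 200 genes, 500 UMIs and 10% mitochondrial UMIs left 47251 cells, and 1854 doublets called by Scrublet or by hashing were left out. Cells were clustered (2000 variable genes without the members, 30 principal components, 15 neighbours, Leiden) and named from marker lists; the details of naming were set while clusters were examined. Cell barcodes and feature names, deposited beside the counts, are not measurements. Sums per class and library of at least 20 cells were tested where at least 4 libraries per arm had them. The test was edgeR 4.0.16 (TMM, filterByExpr, with day as a factor and arm as terms), and DESeq2 1.42.0 was an alternative. On data simulated from these classes the test recovered 42 to 80% of genes changed by a log2 of 1.

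The members and lists were chosen with earlier results of these data known, so their counts are descriptions. Named are the 6 members, in each class the 2 list genes with the smallest adjusted p in each direction, with counts for the rest (the further fibroblast, pericyte and macrophage channel genes, Stom outside endothelial-like cells and Rcan1 in dendritic-like cells were named after their values were seen), and the 3 genes most like each member. Day and sequencing round, given by the labels, pair the libraries. Same-pair deviations from the arm means correlated between -0.050 and 0.542, over 0.1 in 42 of 52 class and pair combinations. They were lowest for day 2, round 1. Day was not taken out, so these correlations cannot tell a link within pairs from a shared effect of day. Nothing states that round marks more than sequencing. Motif and coordinate work used GENCODE M21 and RefSeq promoters; Piezo2 sequence was not used here.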

Additional observations from a re-analysis of the deposited data

Results flagged for a closer look

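In 5 of 90 groups of 4 or 5 libraries of 1 arm, a single library stood far from the rest, its gap to the nearest being over Dixon's 95% limit; chance gives that in about 5% of groups. Tmem63a in endothelial-like cells was lowest in the control library of day 2, round 1, at 13.2 CPM (8 UMIs) beside 33.2 to 40.1 in the other 4. Tmem63a in lymphatic endothelial-like cells was lowest in the expanded library of day 2, round 1, at 20.3 CPM (12 UMIs) beside 41.4 to 47.2. Tmem63b in endothelial-like cells was lowest in that same expanded library, at 14.3 CPM (16 UMIs) beside 30.1 to 35.8. Tmem63b in pericyte or smooth muscle-like cells was highest in the control library of day 2, round 2, at 38.8 CPM beside 18.4 to 24.3, and in T cell-like cells it was highest in the expanded library of day 1, round 1, at 20.1 CPM beside 11.9 to 13.7. None of the 5 belongs to a gene and class called between arms; without the control library of day 2, round 1, Tmem63a in endothelial-like cells was called (log2 fold change -0.55, adjusted p = 0.0462).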

How the results depend on the processing

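The count of 4 member calls within classes lay between 3 and 5 when each library was left out in turn and reached 8 with no filter on low counts, which added Kcnk2, Trpv4 and Piezo1 in basal keratinocyte-like cells and Piezo2 in fibroblast-like cells. The replicate block gave 6, adding Piezo1 in basal keratinocyte-like and Piezo2 in fibroblast-like cells, and, within clusters, Piezo1 in cluster 10 (-1.15, adjusted p = 0.0325) and Kcnk2 in cluster 1 (-1.56, 0.0389); it changed no other call. For whole libraries the count of 1 became 0 with library size alone and ran from 1 to 2 when each library was left out (Piezo1 was added without the day 2, round 1 expanded library). Over 14 single values and 248 alternatives none changed sign, 7 lost and 14 gained a call. Trpv4 in macrophage or monocyte-like cells (log2 fold change -2.83 to -2.06) and Kcnk2 in fibroblast-like cells (-1.22 to -0.46) kept their calls in all alternatives in which they were tested; Trpv4 could not be tested per mouse. With library size alone, all genes called in whole libraries split 3372 higher to 1524 lower, beside 2060 to 2282, and in fibroblast-like cells 3697 to 1262, beside 2181 to 2226. The 3 results with 0 calls stayed at 0 under the alternatives run: with no filter the smallest adjusted p for arm by day was 0.0669, and without thinning 19 of 46 shares had an unadjusted p under 0.05 (smallest adjusted 0.0522). Clustering with the members allowed among the variable genes was not run apart, since none of the 6 was variable enough to enter. Depth limits Piezo2 most, at 1327 UMIs in all, and sums of sorted cells give a gene's part of all RNA, so that fewer of its transcripts per cell and more of other RNA cannot be told apart.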
